A study of Mus musculus with 8 samples.

Results

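The immunity-related GTPases (IRG proteins) of interferon-γ were described here through 7 mouse genes, Irgm1, Irgm2, Igtp, Iigp1, Ifi47, Tgtp1 and Tgtp2. They were taken by gene symbol from both deposited tables and joined by gene identifier, which gave 7 of the 31406 genes in the table of this series. Transcripts were counted by RNA sequencing in 8 primary microglia cultures, 4 in the A2A antagonist group and 4 in the dual group. All 8 cultures came from the striatum of newborn C57/BL6 pups and were grown for 15 days. Lipopolysaccharide (LPS) together with interferon-γ then activated the cells over 48 h. Both groups received SCH 58261, which blocks the adenosine A2A receptor. The dual group alone also received 200 nM of 2-Cl-IB-MECA, which activates the adenosine A3 receptor. Additions were made at 24, 32 and 40 h. This grouping is that of the sample titles and of the count columns, whereas the treatment field of the labels assigns 2-Cl-IB-MECA to those libraries whose title has SCH 58261 alone, and not to the rest. Every direction given here therefore rests on the titles. The labels tie no library to an animal, a litter or a date, so p-values measure the spread between these libraries, which may be technical. The methods of the study name 4 pregnant animals in all and do not assign them to libraries. They give fewer replicates of ligand-treated cells than the 4 per group used here, whereas a figure caption gives 4. Libraries of activated cells without ligand, and of resting cells, were not used here, so the induction of the genes by activation was not measured. The methods of the study list the interferon-γ as the human protein, and the mouse interferon-γ receptor binds human interferon-γ poorly.

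The IRG proteins are GTPases of cell-autonomous immunity that act inside the infected cell on the vacuoles in which pathogens such as Toxoplasma gondii live. They fall into regulators (GMS proteins, named after the sequence of their GTP-binding loop), which hold the family inactive on host membranes, and effectors (GKS proteins), which load onto the pathogen vacuole and disrupt it. Interferon-γ induces their genes through its receptor and the kinases JAK1 and JAK2, whose signal reaches promoters at gamma-activated sites (GAS), and through interferon regulatory factors, which bind interferon-stimulated response elements (ISRE). Type I interferons, which cells release after LPS, also act on these genes. Irgm1, Irgm2 and Igtp (also called Irgm3) encode the regulators. Iigp1 (Irga6), Ifi47 (Irgd) and the near-identical copies Tgtp1 and Tgtp2 (Irgb6) encode effectors.

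Of the 7 genes, 6 lie on chromosome 11, at these positions in GRCm38. Irgm1 (chr11:48861968-48871683, minus strand), Tgtp1 (chr11:48985327-48994172, minus), Tgtp2 (chr11:49057194-49064206, minus) and Ifi47 (chr11:49076587-49096974, plus) formed a cluster of 235.0 kb. Igtp (chr11:58199556-58207591, plus) and Irgm2 (chr11:58199618-58222782, plus) lay 9103 kb further along and overlapped each other. All 7 are annotated as protein coding.

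The stretch of promoter around the interferon motifs is shown for the 5 members that had one, to show which letters they share. The sequences come from RefSeq promoters of GRCm38.p6, which cover 250 bases before to 50 bases after the annotated start, and 6 of the 7 members had an entry. Capitals mark matches to the GAS letters TTCNNNGAA or to the ISRE letters, which are GAAA, 2 bases of any kind and GAAA again. Both were searched on both strands. Each sequence runs 5′ to 3′ on the strand of its gene.
Igtp (chr11:58199491-58199551, plus): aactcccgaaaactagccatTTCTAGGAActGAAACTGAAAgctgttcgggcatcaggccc
Irgm2 (chr11:58214882-58214942, plus): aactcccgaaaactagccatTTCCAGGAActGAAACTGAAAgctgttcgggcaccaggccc
Tgtp1 (chr11:48992294-48992354, minus): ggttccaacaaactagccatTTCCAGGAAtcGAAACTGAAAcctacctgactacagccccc
Tgtp2 (chr11:49064253-49064313, minus): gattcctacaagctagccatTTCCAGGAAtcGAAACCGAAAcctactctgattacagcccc
Irgm1 (chr11:48871415-48871475, minus): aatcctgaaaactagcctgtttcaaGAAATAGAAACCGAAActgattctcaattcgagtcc

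In Igtp, Irgm2, Tgtp1 and Tgtp2 a GAS match was followed after 2 bases by an ISRE match. The pair of motifs began 45 bases before the RefSeq start in Igtp, 75 in Irgm2, 88 in Tgtp1 and 81 in Tgtp2. The stretches of Irgm2, Tgtp1 and Irgm1 lay inside the gene spans given above, which begin further upstream than the RefSeq starts. Irgm1 held 2 overlapping ISRE matches between 30 and 15 bases before its RefSeq start. The letters at the place of the GAS match differed from it by 1 substitution, G7A. Its place is counted from 1 at the first T of TTCNNNGAA, with the motif letter first. The Igtp and Irgm2 stretches were equal at 59 of 61 bases, and those of Tgtp1 and Tgtp2 at 47 of 61. The 300-base Ifi47 promoter (chr11:49076337-49076636, plus) held 0 matches to GAS and 0 to ISRE, which says only that these letters are not in that window. Of 32841 RefSeq promoters of this length, 8.30% held a GAS match, 3.44% an ISRE match and 0.454% both. The spaced pair, a GAS match followed after 2 bases by an ISRE match on the same strand, was written as a pattern after the member matches were seen and occurred in 5 promoters (0.0152%). These were the promoters of Igtp, Irgm2, Tgtp1, Tgtp2 and the IRG locus Gm12185, whose RefSeq promoter (chr11:48927133-48927432, minus) lies apart from that of Tgtp1. The deposited gene model of Gm12185 starts elsewhere, at 48992226, within the Tgtp1 promoter. A match is a description of letters and not of bound factors.

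The libraries held 32630602 to 45878639 counts, and 26155 to 26809 genes were detected in each. The 7 members together made up 0.0904% to 0.104% of a library. The label of the cells was compared with marker genes. Microglia markers were present but summed to 1058 to 1129 counts per 1000000 counts (CPM) in the A2A antagonist group and 1006 to 1071 CPM in the dual group, with the resting markers P2ry12 and Tmem119 lowest at 1.66 and 7.41 CPM with the antagonist. Astrocyte markers summed to 5777 to 6044 and 5830 to 6282 CPM, and fibroblast markers to 2379 to 2652 and 2369 to 2986 CPM. The lists differ in length and in the abundance of the genes chosen, so these sums do not give shares of cells. The methods of the study describe the cells as almost all labelled for CD11b, which these counts do not measure. In RNA of whole cultures, fewer cells of a type and less RNA per cell cannot be told apart. Of the 10 microglia markers 1, C1qa, passed the edgeR test described next (log2 fold change -0.24, adjusted p = 0.0240), and 0 of the 7 astrocyte and 0 of the 6 fibroblast markers did. At an unadjusted p under 0.05, 3 microglia markers were lower (C1qa, Aif1 and Fcrls) and 1 was higher (Csf1r, log2 fold change 0.11), 1 astrocyte marker was lower and 2 were higher, and 0 fibroblast markers were lower and 3 higher. At that p, 1278 of all 18756 genes tested were lower (6.81%) and 1122 were higher. The median log2 fold change was -0.02 for microglia, 0.03 for astrocyte and 0.11 for fibroblast markers. The part of the cell mixture in the values of the IRG genes was not tested.

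The comparison asked whether the A3 receptor agonist changed these transcripts beyond the A2A receptor antagonist. The mean level of each of the 7 members was lower in the dual group, by 5.84% to 12.6%, where 48.5% of all genes tested had a lower value. Of the 7, only Ifi47 passed the test (edgeR quasi-likelihood F test, Benjamini-Hochberg adjusted p under 0.05 over 18756 genes), beside 0.208% of all genes tested and 0.16% called lower. All 7 had an unadjusted p under 0.05 with a lower value, as did 6.81% of all genes tested (12.8% with either direction). Under the other call rules, the DESeq2 Wald test called 2 members (3.37% of genes with an adjusted p), edgeR without the low-count filter 2 (1.17%), and a fold over 1.5 beside the adjusted p 0 (0.00533%). The median log2 fold change of the members was -0.16 (range -0.19 to -0.09), whereas that of all genes tested was 0.0038. In 3 of the 7, Irgm2, Igtp and Ifi47, every dual library lay below every A2A antagonist library, as in 4.06% of all genes tested. The members had been chosen with results of these libraries known, so these counts are descriptions.

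**Figure D1:**
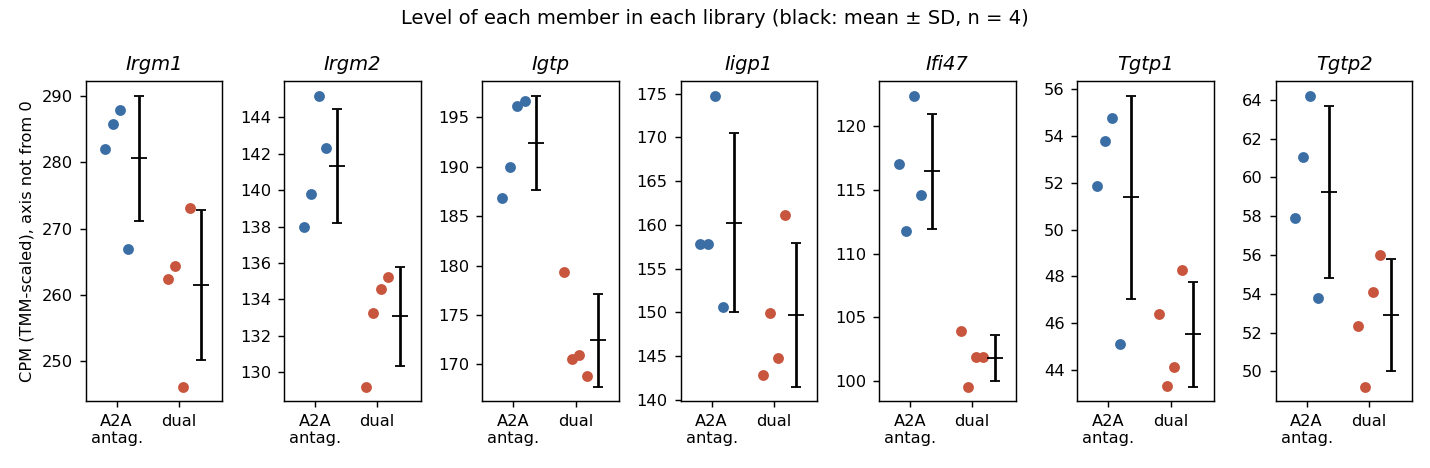
CPM of each member (y axis, not starting at 0) in the 4 A2A antagonist and the 4 dual libraries (x axis), with a point per library, the mean and the SD. The groups did not overlap in Irgm2, Igtp and Ifi47 and overlapped in the other 4 genes.

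**Figure D2:**
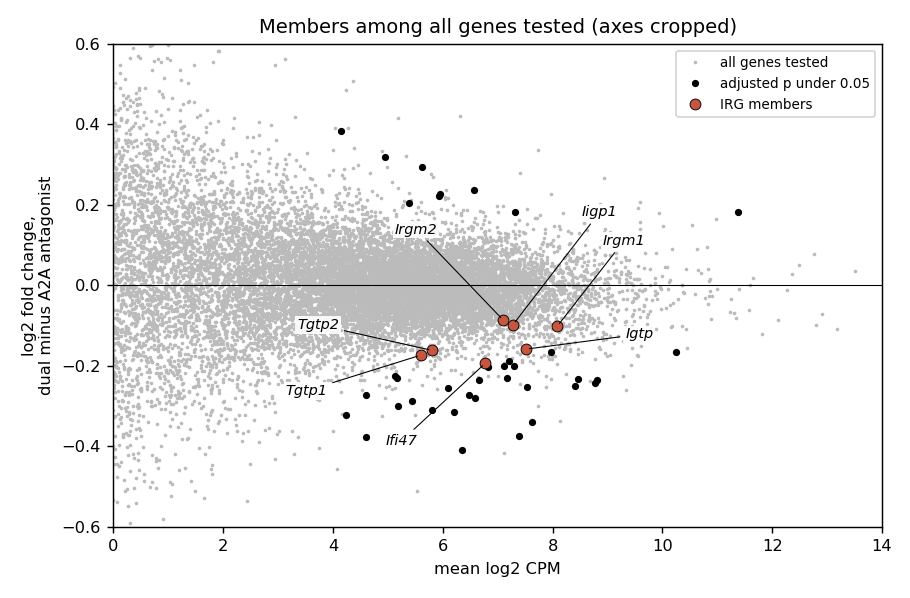
Log2 fold change, dual minus A2A antagonist (y axis), against mean log2 CPM (x axis) of the genes tested, with called genes in black and the 7 members in red. The axes are cropped and leave out 1 called gene. The members all lay below 0, between -0.19 and -0.09, at middle to high abundance.

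Among the effectors, Ifi47 had the largest difference of the 7 members. It had 117, 112, 122 and 115 CPM in A2A antagonist libraries 1 to 4 and 104, 99.6, 102 and 102 CPM in dual libraries 1 to 4. The lowest antagonist library stood above the highest dual library, and the dual libraries lay close together. Ifi47 (ENSMUSG00000078920) fell from 116 ± 4.52 to 102 ± 1.78 CPM (SD, n = 4), which is -0.19 on the log2 scale (SE 0.04, adjusted p = 0.0311 in edgeR). It ranked 25 among the 18756 genes by p. The call did not hold in every fit that left out 1 library. It was lost without A2A antagonist replicate 2, 3 or 4 (adjusted p = 0.0608, 0.0937 and 0.0932) and without dual replicate 2 or 3 (0.0723 and 0.0894), while its log2 fold change stayed between -0.21 and -0.17. Ifi47 shares 111 exonic bases (4.49% of its length) with Olfr56 on the same strand and 106 with a pseudogene on the opposite strand. Olfr56 had 0 to 10 counts per library where Ifi47 had 3390 to 5207.

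Tgtp1 and Tgtp2 encode copies of a single effector, and 83.2% of the 31-base words of Tgtp1 also occur in Tgtp2, so the split of reads between them is uncertain. Tgtp1 (ENSMUSG00000078922) had 51.8, 53.8, 54.7 and 45.1 CPM with the antagonist and 46.4, 43.3, 44.1 and 48.3 CPM with both ligands. A2A antagonist library 4 lay among the dual libraries and the other three stood above them. The means were 51.4 ± 4.33 and 45.5 ± 2.24 CPM, and the log2 fold change was -0.17 (SE 0.06, adjusted p = 0.180 in edgeR). Tgtp2 (ENSMUSG00000078921) had 57.9, 61.0, 64.2 and 53.8 CPM with the antagonist and 52.4, 49.2, 54.1 and 56.0 CPM with both ligands. The same antagonist library was the low one again, below 2 of the dual libraries. Its means were 59.2 ± 4.45 and 52.9 ± 2.89 CPM, and the log2 fold change was -0.16 (SE 0.05, adjusted p = 0.191.) When the counts of the copies were summed before the fit, an alternative added after the data were seen, the log2 fold change was -0.17 (SE 0.05) and the adjusted p 0.153. The ratio of Tgtp2 to Tgtp1 was 1.15 ± 0.0343 and 1.16 ± 0.0446 (SD, n = 4).

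Iigp1 (ENSMUSG00000054072) is the effector best studied on the Toxoplasma vacuole and the single member on chromosome 18 (60376029 to 60392627 as deposited, plus strand, GRCm38). Its groups overlapped. Its libraries held 158, 158, 175 and 151 CPM with the antagonist and 143, 150.0, 145 and 161 CPM with both ligands. Dual library 4 stood above all antagonist libraries but the third, which was the highest of the 8. The means were 160.3 ± 10.3 and 149.7 ± 8.22 CPM, and the log2 fold change was -0.10 (SE 0.05, adjusted p = 0.384 in edgeR). Leaving out single libraries moved the log2 fold change between -0.14 and -0.05.

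Among the regulators, Igtp (ENSMUSG00000078853), which resides on the endoplasmic reticulum, had 187, 190.0, 196 and 197 CPM with the antagonist and 179, 171, 171 and 169 CPM with both ligands. The groups did not overlap, and dual library 1 was the one nearest to the antagonist libraries. The means were 192 ± 4.79 and 172 ± 4.71 CPM, and the log2 fold change was -0.16 (SE 0.03, adjusted p = 0.0572 in edgeR), outside the threshold of 0.05. The adjusted p passed the threshold without A2A antagonist replicate 1 (0.0302) or dual replicate 1 (0.0495), in the DESeq2 Wald test (0.000471) and without the filter on low counts (0.00645). Irgm2 (ENSMUSG00000069874), a regulator of the Golgi apparatus, had 138, 140, 145 and 142 CPM with the antagonist and 129, 133, 135 and 135 CPM with both ligands. The groups lay side by side without overlap. The means were 141 ± 3.14 and 133 ± 2.71 CPM, and the log2 fold change was -0.09 (SE 0.03, adjusted p = 0.270.) Igtp and Irgm2 share 162 exonic bases on the same strand, which are 8.01% of Igtp and 4.39% of Irgm2. With their counts summed, the log2 fold change was -0.13 (SE 0.03) and the adjusted p 0.0770.

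Irgm1 (ENSMUSG00000046879), a regulator that also acts in autophagy and on lysosomes, had the most counts of the 7 genes. It had 282, 286, 288 and 267 CPM with the antagonist and 262, 264, 246 and 273 CPM with both ligands. Dual library 4 stood above A2A antagonist library 4, and the groups otherwise separated. The means were 281 ± 9.43 and 262 ± 11.2 CPM, and the log2 fold change was -0.10 (SE 0.04, adjusted p = 0.236 in edgeR).

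**Figure D3:**
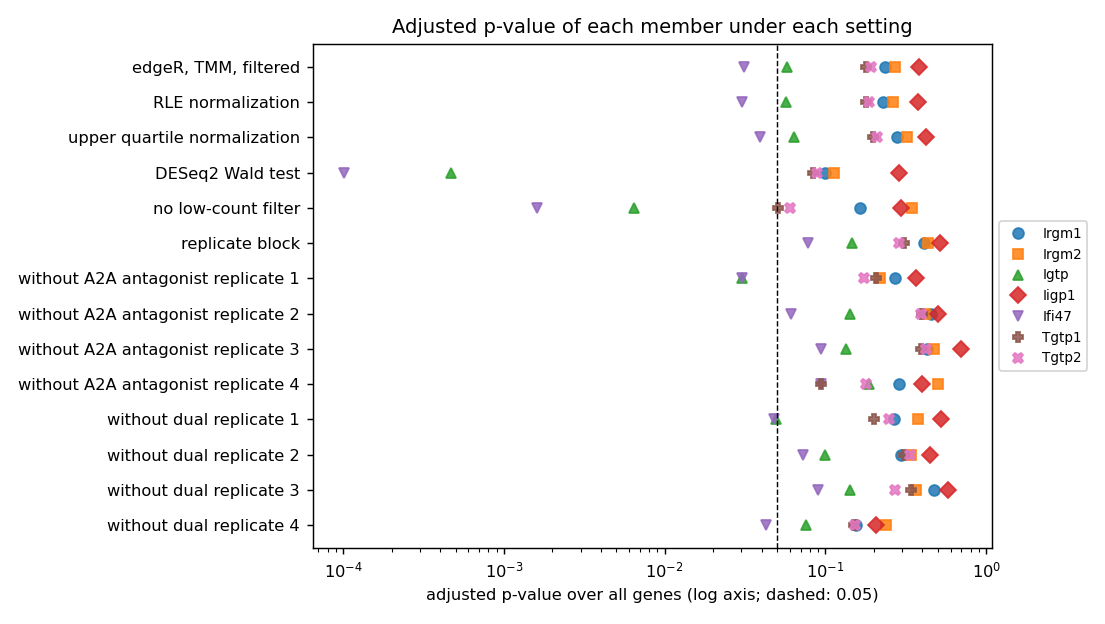
Adjusted p over all genes (x axis, log scale, dashed line at 0.05) of the 7 members under each setting of the test (y axis). Ifi47 and Igtp crossed the line in some settings and the other 5 members lay to its right in each.

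Single members were also compared without a model, by an exact permutation test (two-sided) of the difference in mean CPM, with 70 possible arrangements of the libraries. Its p was 0.0286 for Irgm2, Igtp and Ifi47, which is the smallest it can give. The lack of overlap already given for these genes fixes that value, so the test adds nothing for them. Of 18756 genes tested, 761 lay lower and 630 higher in the dual group without overlap. The permutation p was 0.0571 for Irgm1, 0.0857 for Tgtp1 and for Tgtp2, and 0.171 for Iigp1, all unadjusted over the 7 tests.

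Regulators and effectors were also summed within each library. The summed level of the 3 regulators was 614 ± 10.8 CPM with the antagonist and 567 ± 10.9 CPM with both ligands, 7.70% lower. That of the 4 effectors was 387 ± 21.5 and 350.0 ± 11.7 CPM, 9.65% lower. Regulator counts per effector count came to 1.59 ± 0.0628 and 1.62 ± 0.0430 (SD, n = 4), which differed by less than the spread between libraries. Across all 7 members the sum ranged from 970.1 to 1045 CPM with the antagonist and from 897 to 944 CPM with both ligands. No dual library reached the lowest antagonist library, as for 4.06% of single genes tested. The sum includes Irgm2, Igtp and Ifi47, which did not overlap by themselves. The members were chosen with results known, so this is a description.

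Levels between genes were compared as CPM per kb of the deposited gene length, over the 8 libraries. Igtp had the highest level, 90.2 ± 5.71 CPM per kb (SD, n = 8). Iigp1 (49.7 ± 3.30), Irgm1 (46.7 ± 2.41) and Ifi47 (44.1 ± 3.42) followed in that order, with ranges that overlapped between neighbours. Irgm2 came next with 37.2 ± 1.40 CPM per kb and its range lay apart from that of Ifi47. The copies had the lowest counted levels, Tgtp2 with 19.1 ± 1.65 and Tgtp1 with 15.1 ± 1.39 CPM per kb, and their ranges overlapped. Of the sequence words used above for the copies, 90.5% in Tgtp2 and 84.4% in Tgtp1 also occur in other genes. In the other members this share was 2.88% (Irgm1) to 15.9% (Igtp). Whether reads that match several genes were counted was not tested, so the place of the copies is uncertain. The place of Iigp1 depended on its length, since the deposited length is 3121 bases and the exons of GENCODE release M21 cover 5823. With the latter length it had 26.6 CPM per kb and lay below Irgm2.

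**Figure D4:**
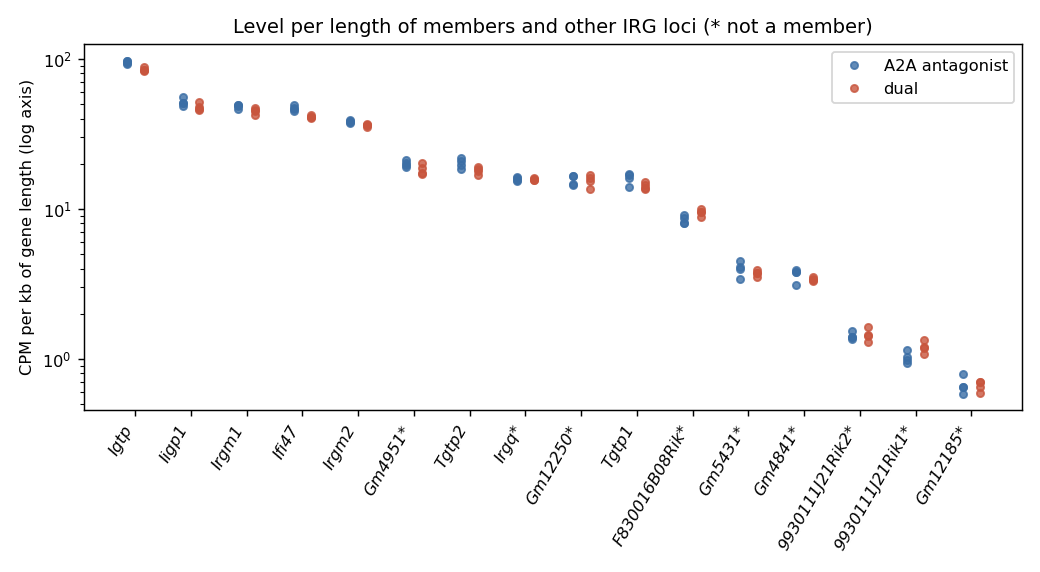
Level in CPM per kb of deposited gene length (y axis, log scale) of the members and of the other IRG loci, which carry an asterisk (x axis), with a point per library of each group. Igtp stood above the others at 83.5 to 97.3 CPM per kb, and Tgtp2 and Tgtp1 lay among the other IRG loci. The places of Tgtp2 and Tgtp1 are uncertain, since most of their sequence words also occur in other genes.

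The genome holds further IRG loci, of which 10 were listed here and 9 passed the low-count filter. Of the 9, 0 passed the edgeR test (0.208% of all genes tested). At an unadjusted p under 0.05, 1 was lower and 2 were higher, beside 1278 lower and 1122 higher of all 18756 genes tested. Of the 9, 6 had a lower and 3 a higher value, and their median log2 fold change was -0.01. The most abundant was Irgq, a distant relative of the members, with 96.1 and 95.7 CPM and a log2 fold change of -0.00 (adjusted p = 0.975). Gm4951 had 52.7 and 48.4 CPM (log2 fold change -0.12, adjusted p = 0.354), and Gm4841 had 10.4 and 9.61 CPM (-0.11, adjusted p = 0.620). F830016B08Rik had 28.0 and 31.1 CPM (log2 fold change 0.15, adjusted p = 0.214), and 9930111J21Rik1 had 5.00 and 5.84 CPM (0.22, adjusted p = 0.359). Gm12250, the locus of the effector Irgb10, had 19.8 and 19.6 CPM with a log2 fold change of -0.01. Gm12185, whose RefSeq promoter holds the spaced pair of motifs and whose deposited model shares 223 exonic bases with Tgtp1 on the same strand, had 3.74 and 3.70 CPM with -0.02. The remaining loci were Gm5431 (-0.10) and 9930111J21Rik2 (0.02). Irgc1, known from testis, had 0 to 3 counts per library and was not tested. Reads of these related loci may be split among them.

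The pathway that induces the family was read from the same fit. There 0.208% of all 18756 genes tested were called. At an unadjusted p under 0.05, 1278 of them were lower (6.81%) and 1122 were higher. Of the 4 receptor and kinase genes tested, 0 were called in edgeR (0 at an unadjusted p under 0.05). The log2 fold changes of the receptor chains were -0.05 for Ifngr1 and -0.01 for Ifngr2, and those of the kinases were -0.02 for Jak2 and 0.02 for Jak1. Of the 6 transcription factors, 0 were called (1 lower and 0 higher at an unadjusted p under 0.05). Irf1, an interferon regulatory factor that is itself induced by interferon-γ, had 134 and 119 CPM with a log2 fold change of -0.17 and an adjusted p of 0.0557. The others were Nlrc5 (-0.08), Irf9 (-0.07), Stat2 (-0.05), Irf8 (0.07) and Ciita (0.12). Of the 6 feedback inhibitors, 0 were called (3 lower and 0 higher at an unadjusted p under 0.05). Usp18, which blocks the type I interferon receptor, had 162 and 143 CPM with a log2 fold change of -0.18 and an adjusted p of 0.0532. Socs3 (-0.14), Ptpn6 (-0.08), Socs1 (-0.02) and Ptpn2 (-0.00) also had a value at or below 0, and Pias1 had 0.02.

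The guanylate-binding proteins are larger interferon-induced GTPases that also gather at pathogen vacuoles, where IRG regulators affect their loading. All 11 of their genes had a lower value in the dual group, as did 48.5% of all genes tested. Of the 11, 7 had an unadjusted p under 0.05 with a lower value (6.81% of all genes tested), and 0 passed the edgeR test (0.208%). Their median log2 fold change was -0.10. In 4 of the 11 every dual library lay below every A2A antagonist library, as in 4.06% of all genes tested. The nearest to the threshold was Gbp11, with 90.2 ± 2.19 and 79.5 ± 2.63 CPM (SD, n = 4), which is -0.18 on the log2 scale (SE 0.04, adjusted p = 0.0531).

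**Figure D5:**
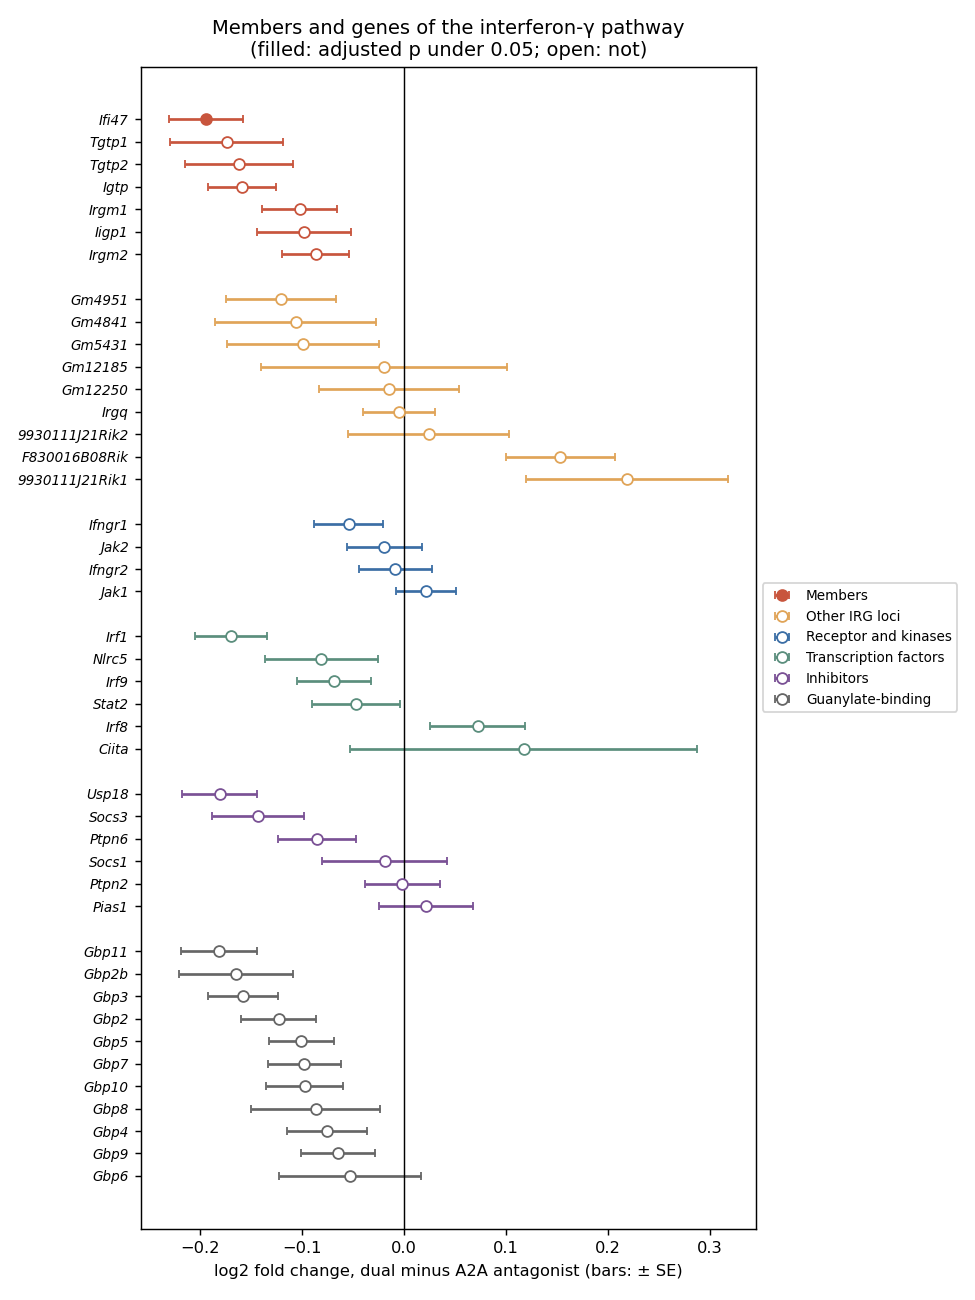
Log2 fold change, dual minus A2A antagonist (x axis), with bars of ± SE, for the members and the genes of each list (y axis). Ifi47 is the single filled point. The members lay between -0.19 and -0.09, with Irf1, Usp18 and the guanylate-binding protein genes on the same side of 0. Jak1 and Irgq lay near 0. Furthest on the other side were 9930111J21Rik1 (0.22), F830016B08Rik (0.15), Ciita (0.12) and Irf8 (0.07).

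The 5 genes whose profile over the 8 libraries was most like the mean profile of the members were found by the root mean square distance of centred log2 CPM values, among 11044 genes. They were Siah2 (0.0192), Impdh2 (0.0240), Gbp3 (0.0243), Sema7a (0.0253) and Btf3 (0.0258). A flat profile lay at 0.0805, and the members themselves at 0.0384 to 0.0571. The log2 fold changes of the 5 genes lay between -0.16 and -0.10, a direction that their selection fixed.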

How the data were processed

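RNA sequencing counts of 8 libraries were used, 4 per group. The authors deposited whole-number counts per gene, not normalized and not pooled, which they obtained per the submitters' processing notes with featureCounts 1.5.0-p3 on mm10. The strand setting of the counting is not given in the sources used here, so genes that share exonic bases are uncertain on either strand. The deposited tables also hold a gene length, and the results of the authors' own comparison (log2 fold change with raw and adjusted p), which were not used. A further 9 columns of control values belong to no sample of this series and were not used. The 30302 genes present in both tables had 0 differing counts in the A2A antagonist libraries. Of 31358 identifiers found in GENCODE release M21, 97.5% had the same position there, so coordinates are given in GRCm38.

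The test was that of edgeR 4.0.16, run in R 4.3.3. Genes passed filterByExpr with a minimum count of 10, which left 18756 of 31406 genes and all 7 members, and libraries were scaled with TMM factors. The quasi-likelihood F test (two-sided, Benjamini-Hochberg over all genes tested, threshold 0.05) compared the groups without covariates, and SE were derived from the F statistics. The biological coefficient of variation was 5.28%. CPM are counts per 1000000 scaled with TMM factors, given as mean ± SD. The chi-square per gene between replicate libraries was 3.80 to 9.43 times that of counting noise, so none was counted as a copy of another. The fit was tested on simulated data, with changes larger than those of the members and the same spread for all genes. That test does not cover differences as small as those of the members. Alternatives were DESeq2 1.42.0, other normalizations, no filter, a replicate block, a fold over 1.5 and leaving out each library in turn.

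Named were all members, every other IRG locus, the genes of interferon-γ signalling, its transcription factors and feedback inhibitors, genes of the other lists (guanylate-binding proteins, ATG8 conjugation) past the threshold, and the 5 genes with the nearest profile. Other genes named (Gbp11, C1qa, Aif1, Fcrls, Csf1r, P2ry12, Tmem119, Gabarap and Olfr56) were picked once their values had been seen. The members and lists were chosen with earlier results of these data known. One gene of the signalling list is not reported here.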

Additional observations from a re-analysis of the deposited data

Results flagged for a closer look

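In 34 groups of 4 libraries (7 members and 10 other IRG loci in each treatment) the highest and the lowest value were compared with the rest, and chance alone marks about 1 in 20 groups. In 2 of the 34 groups a library stood far from the other 3. Gm4841, an IRG locus that is no member of the 7, had 8.83 CPM in A2A antagonist replicate 4, where the other 3 antagonist libraries had 10.7 to 11.1 CPM. The same library was the lowest antagonist library in Irgm1, Iigp1, Tgtp1 and Tgtp2. Irgc1 had 0 CPM in A2A antagonist replicate 1 and 0.0220 to 0.0239 CPM in the others, which is 0 against 1 count per library.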

How the results depend on the processing

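Over the 14 settings tried the members had a negative log2 fold change in 94 of 94 values (Igtp, Irgm2, Tgtp1 and Tgtp2 have none of their own where copies are summed), and their median stayed between -0.17 and -0.12 when single libraries were left out. These are refits of the same libraries, so the values are not independent of each other. The number of calls did change. Main calls were 39 genes and 1 member. The DESeq2 Wald test called 381 genes and 2 members (Ifi47 and Igtp), and the test without the filter on low counts 366 genes and the same 2. A fold over 1.5 as a further criterion left 1 gene and 0 members (all 7 with an unadjusted p under 0.05, 2 called by DESeq2). Without single libraries edgeR called 0 to 172 genes and 0 to 2 members. The 0 genes came without A2A antagonist replicate 4 or without dual replicate 3 (1802 and 2092 genes at an unadjusted p under 0.05), and 5 and 6 genes without A2A antagonist replicates 2 and 3. With the replicate number as a block, 17 genes and 0 members were called, and the adjusted p of Ifi47 was 0.0778. An unadjusted p under 0.05 was then found in 6 members and in 1985 of 18756 genes tested. Same-numbered libraries correlated at -0.158, -0.0470, -0.0903 and -0.206 over genes, and none correlated best with its own number. The numbers thus gave no sign of pairing. Values were centred within each group of 4 first, so these correlations cannot settle whether libraries were paired. The adjusted p of Ifi47 ranged from 0.000101 to 0.0937 over its alternatives and that of Igtp from 0.000471 to 0.187. RLE and upper quartile normalization kept the call of Ifi47. Summing Igtp with Irgm2 and Tgtp1 with Tgtp2, chosen after the data were seen, gave 1 call among 5 genes. In that fit 39 of 18754 genes tested were called. The cause of these differences was not tested. The members had 1514 to 12996 counts per library.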

Other observations

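The proteins that conjugate ATG8 to membranes guide IRG effectors and guanylate-binding proteins to pathogen vacuoles. The list of 10 genes holds conjugation genes and genes of the ATG8 proteins themselves. Of the 10, 0 passed the edgeR test (0.208% of all genes tested). At an unadjusted p under 0.05, 1 was lower (6.81% of all genes tested) and 0 were higher. All 10 had a lower value, as did 48.5% of all genes tested, and their median log2 fold change was -0.04. Gabarap, a member of the ATG8 family, had 224 ± 2.95 CPM with the antagonist and 213 ± 5.78 CPM with both ligands (SD, n = 4), a log2 fold change of -0.07 and an adjusted p of 0.337. These values lay nearer to 0 than the median of the IRG members, and the difference between the lists was not tested.

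Markers of oligodendrocytes summed to 196 to 212 CPM with the antagonist and 184 to 218 CPM with both ligands. Those of endothelial cells summed to 44.3 to 56.8 and 46.7 to 59.0 CPM, and those of neurons to 44.6 to 47.0 and 43.0 to 48.4 CPM. The ranges of the groups overlapped in each of these lists, and 0 of their 13 genes tested passed the edgeR test (0 at an unadjusted p under 0.05).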
